A study of Drosophila melanogaster with 2 samples.

Results

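The genes described here are 5 genes for RNA-binding proteins of the nervous system, elav, fne, Rbp9, Rbp6 and bru3. They were taken by name from 13945 protein-coding genes of the chromosome arms, and every summit inside the gene body, or nearest to one of the gene's transcription start sites (TSSs) among those of protein-coding genes, was counted as theirs. Chromatin immunoprecipitation followed by sequencing (ChIP-seq) had been carried out on whole Drosophila melanogaster embryos, 6 to 16 hours old and of pooled sexes, of a transgenic line that carries dmrt99B with GFP at its C-terminal end. Dmrt99B is a DM-domain transcription factor. One label names the antibody as against GFP and another names dmrt99B, and which was used was not settled here. There was 1 group of 2 biological replicates, numbered 3 and 4, with no second condition, and whole embryos mix neurons with all other cells. Values below are therefore given as descriptions, beside the same measure over all genes or all peaks, with no test. The deposited lists were 1 relaxed list of 30000 peaks for each replicate, 1 from both replicates pooled, and 7838 peaks kept by the irreproducible discovery rate (IDR), which scores whether peaks hold the same order in each replicate. The 7838 IDR peaks were the pooled peaks of highest signal value. The signal value is the authors' own score for a peak, on a scale that is not stated, and was compared only within a list. A peak's place is its position in its list when ordered by signal value, with 1 for the highest. No read totals were analysed here, so depth is unknown, and no peak list of untagged embryos was used.

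The founding member of the group, elav, encodes an RNA-binding protein with RNA recognition motif domains that is found in nearly all neurons of the fly and serves as a general marker of them. Its paralogs fne and Rbp9 encode closely related proteins, and the family is known for neuron-specific alternative splicing and for the use of distal polyadenylation sites, which gives neuronal messages long 3′ UTRs. Rbp6 encodes a protein of the Musashi family, and bru3 one of the Bruno (CELF) family. These are background facts, and RNA was not measured here.

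Of the 5 genes, 4 held at least 1 IDR summit and bru3 held none. Over all protein-coding genes the share with a summit was 27.8%, but a longer gene has more room for one, and the 5 genes were 13.7 to 281 kb long against a median of 2.17 kb. Among genes within 1.5 times the length of elav, fne and Rbp9, 41.7%, 22.4% and 42.7% held none. The same was so for 10 of the 50 genes within that range of Rbp6. Most genes of similar length to these 4 thus held a summit too. Together the 5 genes held 21 IDR summits, of which 11 were assigned to Rbp6, 6 to fne, 3 to elav and 1 to Rbp9. In each of these 4 genes at least 1 IDR summit lay within 1000 bp of a TSS, which was so for 20.1% of all genes. With a distance of 500 bp only elav and Rbp6 kept such a summit. These 4 genes have 2 to 4 annotated TSSs, and the 20.1% was matched neither for length nor for the number of TSSs.

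The sequences that carry the strongest binding are shown first, so that the bases under each gene's top peak can be compared. Each holds 100 bases on either side of the strongest IDR summit of the gene, or of the strongest pooled summit for bru3, read on the plus strand of the release 6 genome (dm6). Capitals mark exact matches, on either strand, to 8 words that were searched. These were ACAATGT as the core bound by DM domains, CAGTGTA together with the related CACTGAG and with the overlapping AGTGTAG, then TATCGAT as part of the DNA replication-related element, GAGAGAG as the GAGA factor word, CAGCTG as an E-box and CAGGTAG as the Zelda word. On opposite strands CAGTGTA can also overlap with CACTGAG. The windows lie at chrX:523391-523591 (elav), chrX:12925934-12926134 (fne), chr2L:2957624-2957824 (Rbp9), chr3L:17113330-17113530 (Rbp6) and chr3L:13678268-13678468 (bru3).
elav: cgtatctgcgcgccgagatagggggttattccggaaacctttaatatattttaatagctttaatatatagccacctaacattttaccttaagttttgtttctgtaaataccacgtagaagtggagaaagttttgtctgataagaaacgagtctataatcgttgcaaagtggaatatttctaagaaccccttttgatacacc
fne: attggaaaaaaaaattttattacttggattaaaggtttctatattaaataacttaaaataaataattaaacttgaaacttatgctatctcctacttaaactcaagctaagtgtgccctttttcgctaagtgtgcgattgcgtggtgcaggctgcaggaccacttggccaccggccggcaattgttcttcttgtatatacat
Rbp9: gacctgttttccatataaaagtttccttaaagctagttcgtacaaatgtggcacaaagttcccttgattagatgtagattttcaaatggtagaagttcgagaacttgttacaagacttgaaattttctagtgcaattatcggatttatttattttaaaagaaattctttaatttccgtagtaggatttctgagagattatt
Rbp6: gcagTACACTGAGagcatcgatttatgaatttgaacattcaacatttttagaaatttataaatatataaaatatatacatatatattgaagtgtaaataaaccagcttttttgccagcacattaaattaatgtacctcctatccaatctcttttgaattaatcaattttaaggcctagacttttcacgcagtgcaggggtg
bru3: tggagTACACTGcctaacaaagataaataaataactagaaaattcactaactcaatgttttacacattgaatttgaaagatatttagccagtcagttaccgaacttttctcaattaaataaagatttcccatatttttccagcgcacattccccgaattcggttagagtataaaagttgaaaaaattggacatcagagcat
The windows of elav, fne and Rbp9 held none of the 8 words. That of Rbp6 held CAGTGTA and CACTGAG in overlap, and that of bru3 held CAGTGTA.

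At elav (FBgn0260400, chrX:509235-523226, minus strand) the 3 IDR summits lay around the upstream TSS. The strongest of all 21 IDR summits stood 265 bp upstream of this TSS, in a peak at chrX:523227-523729. Its signal value was 3766 in the pooled list (place 65 of the IDR peaks), 2617 in replicate 3 (place 69) and 1150 in replicate 4 (place 63), so both replicates put it near the top of their lists. Of all protein-coding genes, 71 (0.509%) had an assigned IDR summit at least as strong. The other 2 IDR summits of elav flanked it and were far weaker. The upstream one, 1333 bp from the TSS, had a pooled signal value of 297 (place 4499), with 227 in replicate 3 (place 4320) and 73.7 in replicate 4 (place 5512). The other lay 569 bp downstream, in the first intron of elav, with 480 in the pooled list (place 2685), 358 in replicate 3 (place 2604) and 122 in replicate 4 (place 3241). The upstream TSS is also that of the non-coding gene lncRNA:enrr, and the gene arg on the plus strand (chrX:509435-528028) spans all 3 summits, so the peaks cannot be given to elav alone.

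The second TSS of elav, which starts 1 annotated transcript, had no IDR summit within 1000 bp. The relaxed lists held a weak one there, 351 bp upstream, with a pooled signal value of 76.1 (place 16320), 65.3 in replicate 3 (place 14569) and 27.2 in replicate 4 (place 15255). Of the 8 pooled summits of elav, 3 lay in its own 3′ UTR, at 7.29 to 8.48 kb from the upstream TSS. All 3 also lay inside arg and lncRNA:enrr, so they cannot be given to elav alone. The strongest of them, which was nearest to a TSS of arg, reached 102 (place 12450), below the IDR minimum of 169. A further summit in the first intron, 1177 bp downstream, was placed differently by the replicates, with 31.1 in replicate 3 (place 28450) and 61.2 in replicate 4 (place 6657). It was 1 of 4 elav summits among the 7838 strongest peaks of replicate 4, against 3 in replicate 3.

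**Figure D1:**
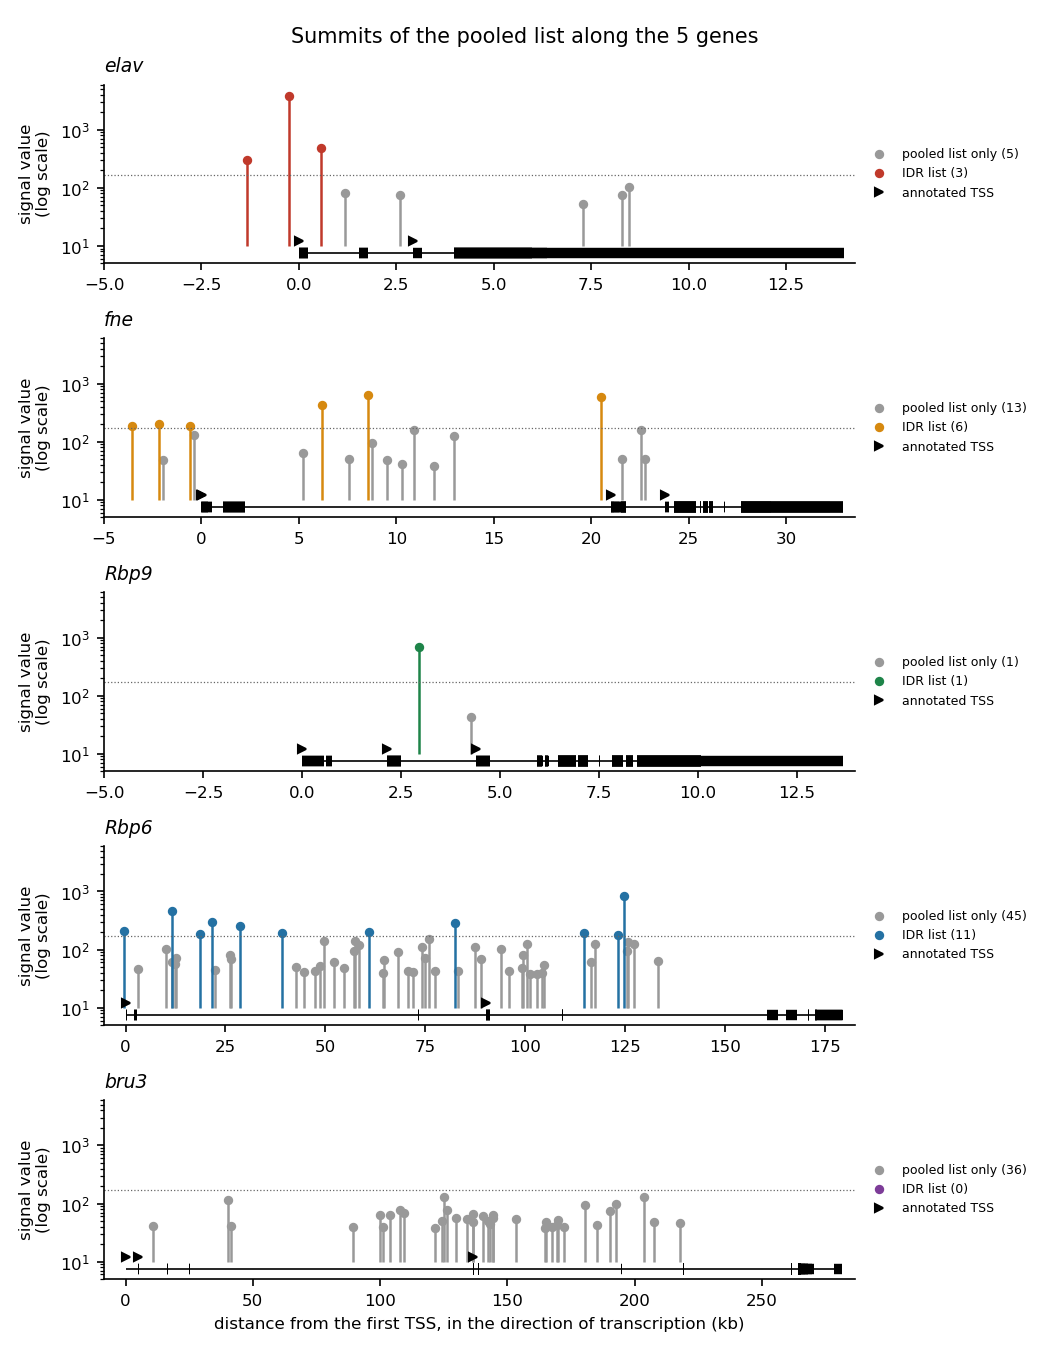
Summits of the pooled list along the 5 genes, plotted as signal value (log scale) against distance in kb from the first TSS in the direction of transcription. Coloured points are IDR summits, grey points passed only into the pooled list, the dotted line is the IDR minimum of 169, arrowheads are annotated TSSs and black blocks are exons. The 3 IDR summits of elav lie around its upstream TSS, and 3 of its weaker pooled summits lie in its 3′ UTR, which arg also spans. The IDR summits of Rbp6 spread over its introns, and all 36 pooled summits of bru3 lie under the line.

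The paralog fne (FBgn0086675, chrX:12917477-12950417, plus strand) had 6 IDR summits in 2 settings. Weak summits lay upstream of the first TSS, at 3547, 2174 and 572 bp, with pooled signal values of 188, 205 and 183. In replicate 3 they took places 8019, 6910 and 7373, and in replicate 4 places 6272, 7040 and 8802. All 3 stood near the weak end of the IDR list. The most distal and the middle one lay 914 and 459 bp from the start of lncRNA:CR45626, a non-coding gene, which is closer than fne.

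The stronger fne summits were intragenic. They fell in the second intron of the longest annotated transcript, 19.3 kb long, at 6185 bp and 8550 bp from the nearest TSS and at 514 bp upstream of an internal TSS that starts 5 annotated transcripts. The summit at 8550 bp was the strongest, with a signal value of 626 in the pooled list (place 1939), 416 in replicate 3 (place 2163) and 197 in replicate 4 (place 1796). The summit before the internal TSS followed with 581 (place 2131), 401 in replicate 3 (place 2253) and 176 in replicate 4 (place 2070), and that at 6185 bp with 424 (place 3130), 283 (place 3431) and 145 (place 2641). The replicates thus gave these 3 similar places. The IDR summit nearest the internal TSS was thus stronger than that nearest the first TSS (581 against 183). The last annotated TSS of fne had no summit of any list within 1000 bp. Just outside the IDR set stood 2 intronic fne summits, with pooled signal values of 162 (place 8166) and 159 (place 8298), both found within 200 bp in each replicate.

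Rbp9 (FBgn0010263, chr2L:2954762-2968434, plus strand) had a single IDR summit. It lay in the first intron of the longest transcript, 813 bp downstream of the second of 3 annotated TSSs, which starts 4 transcripts, in a peak at chr2L:2957562-2957917. The signal value was 698 in the pooled list (place 1701), 514 in replicate 3 (place 1648) and 175 in replicate 4 (place 2096). Replicate 4 alone held a further summit just upstream of this TSS, with a signal value of 49.9 (place 8226). Neither of the other TSSs of Rbp9 had an IDR summit within 1000 bp. At the third TSS the pooled list held a summit 121 bp upstream, with a signal value of 42.7 (place 27276), which had a counterpart within 200 bp in replicate 3 (38.6, place 23723) but not in replicate 4.

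Among the 3 ELAV family genes, the order of the strongest summits by signal value was elav (3766), Rbp9 (698) and fne (626). The same order held in replicate 3 (2617, 514 and 416), while in replicate 4 fne (197) stood above Rbp9 (175). The order of Rbp9 and fne was thus not the same in both replicates. The elav summit lay outside the gene before its TSS, and those of the other genes lay inside introns.

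Rbp6 (FBgn0260943, chr3L:17058774-17238212, minus strand) was 179 kb long and held 11 IDR summits, a number reached by 83 (0.595%) of all protein-coding genes. Among the 50 genes whose length was within 1.5 times that of Rbp6, 15 held as many and the median was 4. Per 10 kb of gene body Rbp6 had 0.557 IDR summits, beside 0.545 over all genes combined, so the number per length was close to the overall one. The corresponding values were 0.715 for elav, 0.911 for fne and 0.731 for Rbp9, each of which rests on 1 to 3 summits in the gene body.

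The binding in Rbp6 was spread over introns. Of its summits 10 lay in introns of the longest transcript, with 4 in the third, 3 in the seventh and 1 each in the second, the fourth and the sixth. The strongest was in the seventh intron, 34.5 kb downstream of the second TSS and far from any promoter of a protein-coding gene, in a peak at chr3L:17113256-17113599. It had a signal value of 826 in the pooled list (place 1367), 556 in replicate 3 (place 1491) and 262 in replicate 4 (place 1224). The next, in the second intron 11.7 kb from the first TSS, had 454 (place 2873), with 315 in replicate 3 (place 3027) and 144 in replicate 4 (place 2669). The other intronic summits ranged from 175 to 294, and 9 of the 11 Rbp6 summits lay below the median signal value of the IDR list (341).

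At the Rbp6 promoters binding was weak or not called. The summit 348 bp upstream of the first TSS had a pooled signal value of 211 (place 6397). Its replicates disagreed, with 188 in replicate 3 (place 5258) and 24.4 in replicate 4 (place 17001). Without replicate 3, that is among the 7838 strongest peaks of replicate 4, Rbp6 had no summit within 1000 bp of a TSS, and its summits numbered 6 in place of 11. The second TSS, which starts 4 transcripts, had no summit of any list within 1000 bp, and its nearest IDR summit was 7858 bp away.

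**Figure D2:**
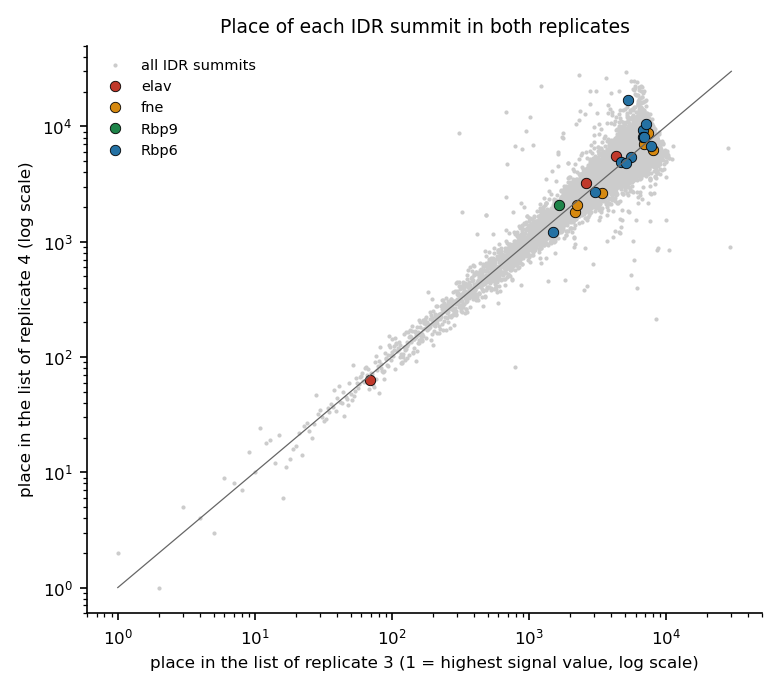
Place of each IDR summit in the list of replicate 3 (x axis) and replicate 4 (y axis), both on log scales with 1 for the highest signal value, for summits with a counterpart within 200 bp in both. Grey points are all 7760 such IDR summits and coloured points those of elav, fne, Rbp9 and Rbp6. The strongest elav summit is near the top of both lists (places 69 and 63), and 1 Rbp6 summit lies well above the diagonal (places 5258 and 17001).

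Every one of the 21 IDR summits had a counterpart within 200 bp in both replicates, as did 99.0% of all IDR summits, and none was shifted by more than 86 bp. Among the 7838 strongest peaks of each replicate, a stricter set, 20 were found in replicate 3 and 15 in replicate 4, with 14 in both (66.7%). Of all IDR summits 94.6% were found in that set of replicate 3, 88.4% in that of replicate 4 and 83.9% in both. Places in the replicates differed by more than 2 times for 1 of the 21, the Rbp6 promoter summit, and for 3.39% of the 7760 IDR summits with a place in both. The median signal value of the 21 was 282, against 341 over all IDR peaks, and 8 of them were above it.

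By location 16 of the 21 summits lay in introns (76.2%, 95% Wilson interval 54.9% to 89.4%), 3 in promoters (within 500 bp of any annotated TSS) and 2 in intergenic sequence. Introns of any gene were counted, and the summit 1333 bp upstream of elav was classed as intronic through arg, which spans it. Over all IDR summits 47.3% were intronic, 29.5% in promoters and 20.3% intergenic. No summit of the 5 genes fell in a coding exon, a 5′ UTR or a 3′ UTR (0 of 21 for each, with an upper 95% Wilson limit of 15.5%). These classes held 0.230%, 0.536% and 0.931% of all IDR summits, so 0 of 21 is near those shares. The interval covers counting error over summits only, and 10 of the 16 intronic summits belonged to Rbp6. The 5 genes are long, and every summit inside their bodies was counted. The share over all IDR summits was not matched for gene length, so the intronic share is not read as a trait of the 5 genes. The intronic share of the 21 also depended on the promoter window. It was 61.9% with a window of 1000 bp and 85.7% with one narrower than 500 bp.

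No IDR summit was assigned to bru3 (FBgn0264001, chr3L:13521907-13803400, minus strand), although it was the longest of the 5 genes at 281 kb. Of 83 protein-coding genes of 100 kb or more, 79.5% had at least 1 IDR summit. Of the 7 genes whose length was within 1.5 times that of bru3, itself included, 5 had none. Apart from bru3, the genes with none held at most 1 summit each in the pooled list, against 36 in bru3. No IDR peak lay within 59.2 kb of any of its 3 TSSs. The relaxed lists did hold bru3 summits, 36 in the pooled list, 34 in replicate 3 and 35 in replicate 4, and 42.3% of all genes had at least 1 pooled summit.

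All bru3 summits were weak. The strongest lay in the fourth intron, 139 kb long, 125 kb from the first TSS and 11.6 kb upstream of the third. It had a signal value of 129 in the pooled list (place 10050), 98.7 in replicate 3 (place 9830) and 33.4 in replicate 4 (place 12284). It reached 0.761 times the lowest signal value of the IDR list. The next was in the sixth intron, with 127 in the pooled list (place 10144), 99.1 in replicate 3 (place 9794) and 29.1 in replicate 4 (place 14177). No bru3 summit was thus among the 7838 strongest of any list. The third TSS, which starts 15 of the 18 annotated bru3 transcripts, had a summit 51 bp upstream. Its signal value was 64.7 in the pooled list (place 18965) and 49.5 in replicate 3 (place 18935). Replicate 4 held only a summit of 18.0 (place 23152), 779 bp from this TSS.

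Of the 36 pooled summits of bru3, 12 had a counterpart within 200 bp in both replicates, 22 in 1 replicate and 2 in neither. Over all pooled summits below the IDR set 57.0% had one in both replicates. For the summits of Rbp6 below the IDR set the count was 28 of 45, for fne 6 of 13, for elav 4 of 5 and for Rbp9 0 of 1. In the pooled list the bru3 summits were unevenly spread, with 3 between 10.8 and 41.4 kb from the first TSS, none in the next 48.1 kb, and 33 between 89.5 and 218 kb. Per 10 kb of gene body the pooled list held 1.28 summits in bru3, 3.07 in Rbp6, 4.29 in elav, 4.25 in fne and 1.46 in Rbp9, against 2.09 over all genes combined.

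**Figure D3:**
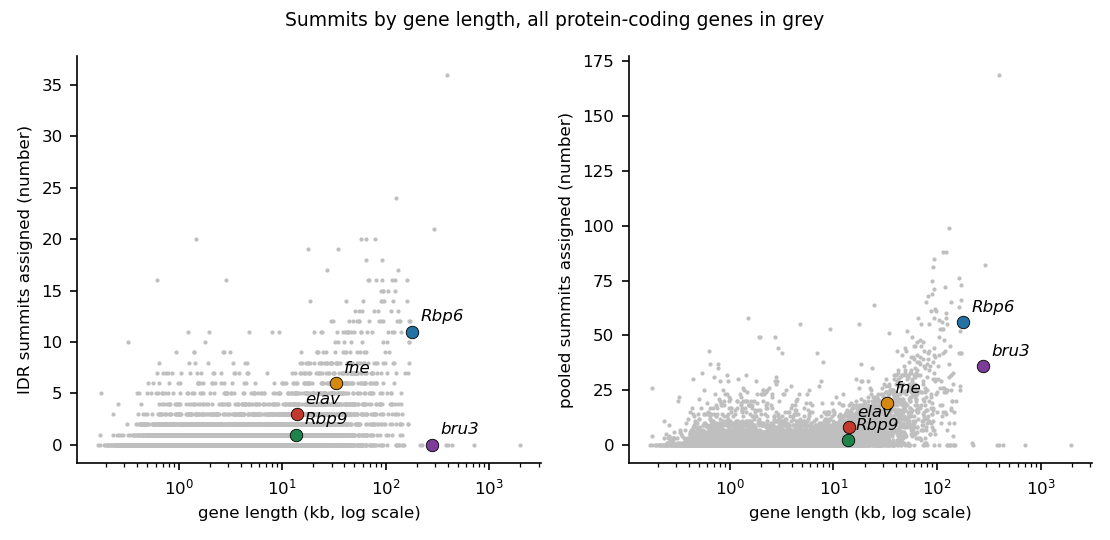
Number of assigned IDR summits (left) and pooled summits (right) against gene length in kb (log scale) for all 13945 protein-coding genes in grey, with the 5 genes coloured. Rbp6 (11 and 56) lies among the long genes with several summits, and bru3 (0 and 36) lies at 0 on the left only.

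The word CAGTGTA occurred in the windows, of the same length as those above, of 5 of the 21 IDR summits (23.8%), and in 8.42% of all IDR windows. Without replicate 4 the count fell to 3 of 21 (14.3%, against 8.18% of the peaks then used), and within 50 bp of the summit to 1 (4.76%, against 1.84%). Without replicate 3 the count was 4 of 17 (23.5%, against 7.77% of the peaks then used). Within 200 bp of the IDR summits the count stayed at 5, while the share of all IDR windows was 13.7%. The 5 windows were those of the most distal upstream summit of fne and of 4 intronic summits of Rbp6. CACTGAG was found in 4 of the 21 windows (6.71% of all), CAGCTG in 2 (5.75%), AGTGTAG in 1 (4.29%) and ACAATGT in 1 (3.99%), the upstream summit of elav. None of the 21 held TATCGAT (3.29% of all), nor GAGAGAG (3.10%), nor CAGGTAG (0.740%). With 21 windows these counts are small, and 11 of the windows come from a single gene. The windows had a median GC content of 30.8%, and those of all IDR peaks 32.8%.

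In 3 of these windows, 1 of fne and 2 of Rbp6, CAGTGTA was preceded by CT, which makes CTCAGTGTA and so joins it to CACTGAG read on the other strand. This longer word and the stretches shown were chosen after the matches were seen, and the word was present in 140 of the 7838 IDR windows (1.79%). To compare them, the 5 IDR matches and that of the strongest bru3 summit are shown with 20 bases on either side in the direction of the word. Capitals mark CAGTGTA, or CTCAGTGTA where it is complete.
fne, chrX:12913956-12914002, plus strand: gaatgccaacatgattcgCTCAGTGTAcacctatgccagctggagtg
Rbp6, chr3L:17226403-17226449, minus strand: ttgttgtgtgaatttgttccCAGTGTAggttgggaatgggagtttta
Rbp6, chr3L:17219475-17219521, plus strand: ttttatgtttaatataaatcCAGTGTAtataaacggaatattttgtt
Rbp6, chr3L:17216502-17216548, plus strand: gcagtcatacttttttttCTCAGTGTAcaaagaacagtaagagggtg
Rbp6, chr3L:17113314-17113360, minus strand: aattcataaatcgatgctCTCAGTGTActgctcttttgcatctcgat
bru3, chr3L:13678253-13678299, minus strand: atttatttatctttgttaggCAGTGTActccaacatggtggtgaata
The middle of the word lay 13 to 93 bp from the summit of its window, and in 1 case, the Rbp6 match at 13 bp, closer than 49 bp. A match is a description of the sequence and does not mark a site of Dmrt99B.

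Of 24 other genes for neuronal or ELAV-related RNA-binding proteins, 17 had at least 1 IDR summit assigned (70.8%, against 27.8% of all genes). Counted by distance alone, to whichever gene the summit was assigned, 14 had one within 1000 bp of a TSS (58.3%, against the 20.1% of all genes). The 14 include orb, which is not among the 17. The 24 genes were long, with a median of 37.4 kb, and length was not matched. The strongest promoter summits belonged to msi, the Musashi gene (5051, place 27), brat, a translational repressor and brain tumour suppressor (3126, place 116), mub (1875, place 344), shep (1433, place 602), orb, a CPEB-type regulator of translation (1293, place 704), and mbl, the muscleblind splicing factor (1282, place 710). The orb summit was nearest to the TSS of another gene and outside the orb body, so no summit was assigned to orb. Of the CELF relatives of bru3, which itself had 0, bru1 had 2 IDR summits and bru2 had 7. Sxl, whose RNA-binding domains resemble those of ELAV, had 4.

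Of 15 genes listed here as pan-neuronal, 3 had an IDR summit and 2 had one within 1000 bp of a TSS, beside 27.8% and 20.1% of all genes. Whether each is confined to neurons was not examined. With 15 genes these counts are small. They are near the shares of all genes, which are mostly shorter, and no result about the list is drawn from them. The genes with a promoter summit were Syx1A, a syntaxin of synaptic vesicle release (322, place 4142), and Nrg, an adhesion molecule whose transcripts are known ELAV targets (197, place 6824). The 12 with none included nSyb, Syt1 and brp of the synapse. The median length of these genes was 27.7 kb, above the 2.17 kb of all genes, and length was not matched here either.

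**Figure D4:**
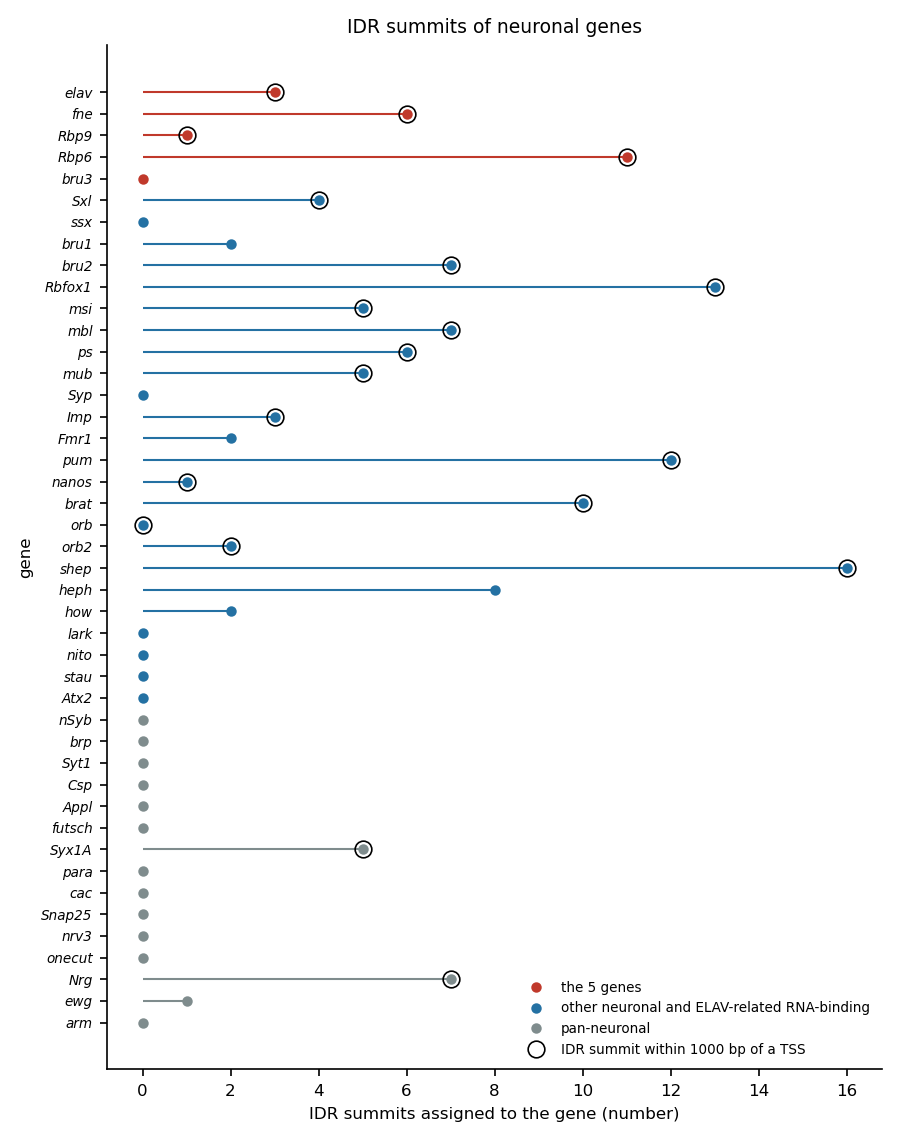
Number of IDR summits assigned to each of the 5 genes (red), 24 other RNA-binding genes (blue) and 15 genes listed as pan-neuronal (grey). A ring marks genes that have an IDR summit within 1000 bp of a TSS. Counts reach 11 in Rbp6 and 16 in shep, and 12 of the 15 pan-neuronal genes are at 0.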

How the data were processed

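Peak lists of ChIP-seq for Dmrt99B fused to GFP in embryos were used as the authors deposited them, in dm6 coordinates. A file listing deposited by the authors says that relaxed lists came from alignments plus a further file, and that IDR peaks came from the 3 relaxed lists. No aligner, peak caller or IDR threshold is given in the sources used here. The deposited signal value is a score of unstated scale. Summits were the peak start plus the deposited offset. They were placed on the release 6 sequence and the Ensembl release 115 annotation, without transposable elements, with pandas 2.3.3 and numpy 2.4.6 in Python 3.11.15. Intervals came from scipy 1.17.1 and figures from matplotlib 3.10.9. As a location class, a promoter was within 500 bp of any annotated TSS, and other summits were classed by exon part first, then intron, then intergenic. The promoter summit of a gene was an IDR summit within 1000 bp of one of its own TSSs, unless another distance is given. Replicate summits were matched to the strongest within 200 bp. The placement steps were checked on made-up genes with known answers. The 5 genes, the gene lists and the words searched were chosen with earlier results of these data known. Named were all 5 genes, up to 6 other RNA-binding genes and up to 4 pan-neuronal genes with the strongest promoter summit; bru1, bru2, Sxl, nSyb, Syt1 and brp were named after their values were seen. No protein sequences were used here. With 1 group there was no comparison between groups.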

Additional observations from a re-analysis of the deposited data

How the results depend on the processing

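Of 40 recomputed summary values, 33 stayed close to the value reported (counts within 1.5 times, shares within the 95% Wilson interval), as did 25 of 35 recomputed summit counts of single genes, and 10 of the latter moved. For the intronic share the interval is wide (54.9% to 89.4%), so large changes still counted as close. That share was 61.9% with a promoter window of 1000 bp and 85.7% with one narrower than 500 bp. Among IDR peaks above the median signal value it was 87.5%. Among IDR peaks above the median signal value, 8 summits were assigned to the 5 genes, in place of 21 (Rbp6 2 in place of 11, fne 3 in place of 6). Of these, 2 of 8 windows held CAGTGTA, in place of 5 of 21, beside 8.65% of all windows of that set. The count thus fell with the number of summits, and the share did not fall, but both windows were of Rbp6. In the whole pooled list 121 summits were assigned, and the count of each gene moved (Rbp6 56, bru3 36, fne 19, elav 8, Rbp9 2). Counting gene bodies only, elav had 1 and fne 3. The changes of the peak set leave fewer or more peaks by construction. With a TSS distance of 500 bp, 2 of the 5 genes had a promoter summit, in place of 4, and within 50 bp of the summit 1 window held CAGTGTA (4.76%, against 1.84% of all IDR windows). When both counterparts had to be among the strongest peaks of each replicate, 66.7% of the 21 had them, and 83.9% of all IDR summits. Leaving out 1 replicate gave 17 to 21 summits, 3 to 4 genes with a promoter summit, 4 of 5 genes with any, and 3 to 4 windows with CAGTGTA. It also gave 13 to 16 other RNA-binding genes with a promoter summit and 76.2% to 76.5% of summits in introns. Both counterparts were found for 95.2% to 100%. Each summit is then its own counterpart in the replicate kept, so only the other replicate could lower that share. Without replicate 4, 3 windows held CAGTGTA; without replicate 3, Rbp6 had 6 summits and no promoter summit; the cause was not tested. Counting the nearest TSS of any gene, an alternative chosen after seeing the data, gave 19 summits, of which 4 were those of fne. bru3 had 0 IDR summits under every alternative run except the whole pooled list. No paired analysis was possible because there was 1 group. Depth is unknown and limits what a weak summit shows.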

Other observations

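Of the 10 longest protein-coding genes with no IDR summit, bru3 was the only one with more than 1 summit in the pooled list, where it had 36. The others, among them Myo81F (1966 kb), Pzl (709 kb), lovit (434 kb) and Snap25 (225 kb), had 0 pooled summits each, except l(3)80Fg (216 kb), which had 1. These genes were named after their values were seen. Whether reads can be placed in them was not tested.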
